A study of Homo sapiens with 21 samples.

Results

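The 7 genes described here are IGLL1, VPREB1, VPREB3, CD79A, CD79B, PAX5 and EBF1, which mark B-lymphoid precursors. They are 7 of the 54042 genes in the count table, found by matching Ensembl identifiers to these symbols. The set was selected on the wild type counts at 24 h of ironomycin against DMSO, where IGLL1 was among the largest falls, so values of these genes in that contrast are given as a description without a test. Of the 7 genes, 5 had any count, and 3 (IGLL1, PAX5 and EBF1) passed the filter on low counts that left 11610 genes for testing.

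IGLL1 encodes the lambda5 chain of the surrogate light chain. In precursor B cells it pairs with a VpreB protein, joins the newly made immunoglobulin heavy chain and forms the pre-B cell receptor, which signals through the CD79A and CD79B chains at a checkpoint of B-cell development. EBF1 and PAX5 are transcription factors that specify and hold B-cell identity, and IGLL1, VPREB1, CD79A and CD79B are known as their targets. Surrogate light chain genes are normally silenced once the checkpoint is passed.

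MV4-11 is a human leukaemia cell line that the labels describe as having B and myelomonocytic features, and it carries a KMT2A rearrangement. All cells were MV4-11 in RPMI-1640 with 10% FCS. Wild type cells were given solvent (DMSO) or were treated for 6 h or for 24 h with ironomycin (AM5), a derivative of salinomycin. Cells with a CRISPR knockout of HK2 (hexokinase 2) or of PGP (phosphoglycolate phosphatase) received DMSO, or ironomycin for 24 h. This gives 7 groups of 3 libraries, 21 in all. The labels give no time for DMSO, no ironomycin dose, and no word on whether a knockout line is 1 clone, and nothing in them says that replicates were separate cultures. The p-values therefore rest on the spread between these libraries, which may be technical.

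Transcript ends were counted with a 3′ kit, and total counts per library lay between 3829274 and 6069264. At that depth 3 counts correspond to between 0.494 and 0.783 CPM, the unit of counts relative to library size. HK2 transcript was at 52.6 ± 14.7 CPM (SD, n = 3) in wild type DMSO and 22.0 ± 2.49 in HK2 knockout DMSO, and PGP at 90.6 ± 4.49 in wild type DMSO and 75.4 ± 7.10 in PGP knockout DMSO. Neither transcript was lost, and a 3′ tag need not show an edit elsewhere in the gene. The PGP knockout library of 24 h labelled replicate 2 stood apart in markers of other cells, with counts for 7 of 8 T cell markers (42 counts, 9.76 CPM), where no other library exceeded 2.14 CPM. Fitted changes at 24 h in PGP knockout cells are followed below by their values without it, except those of INPP5D, BCL11A and IL3RA. Counts called in the gene lists are too. Group levels, count ratios, list medians and differences between responses are given with it included. So are marker counts, shares of all genes and the ranking of genes like IGLL1.

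In the text, fold changes are log2 values ± SE from 1 edgeR quasi-likelihood fit of all 21 libraries, and the threshold for a call was 0.05 on the p-value after Benjamini-Hochberg adjustment over the 11610 genes. Levels are CPM, given as mean ± SD with n = 3 per group.

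The promoter windows of the 3 measurable genes, the 250 bases before an annotated start, are shown as a description. They come from RefSeq on GRCh38.p14, which matched 6 of the 7 genes by symbol (not CD79B). Only 1 window per gene was searched, and any other start of a gene was not. The files use hg19, so these positions do not apply to the files. Capitals mark matches to 1 of 3 letter patterns searched on both strands: the E-box CAGGTG, the Ikaros-type core TGGGAA and the consensus EBF1 palindrome. All 3 windows lie on the minus strand, at chr22:23580291-23580540 for IGLL1, chr9:37034269-37034518 for PAX5 and chr5:159097957-159098206 for EBF1.
IGLL1: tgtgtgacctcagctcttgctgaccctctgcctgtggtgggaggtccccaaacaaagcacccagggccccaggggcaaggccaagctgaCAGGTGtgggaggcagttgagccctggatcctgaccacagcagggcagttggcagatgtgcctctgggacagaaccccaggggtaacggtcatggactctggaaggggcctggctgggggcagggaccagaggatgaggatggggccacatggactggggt
PAX5: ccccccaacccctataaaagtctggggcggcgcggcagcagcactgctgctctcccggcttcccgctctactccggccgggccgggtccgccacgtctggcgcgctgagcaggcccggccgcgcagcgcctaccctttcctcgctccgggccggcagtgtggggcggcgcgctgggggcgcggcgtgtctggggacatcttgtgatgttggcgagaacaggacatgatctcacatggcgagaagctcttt
EBF1: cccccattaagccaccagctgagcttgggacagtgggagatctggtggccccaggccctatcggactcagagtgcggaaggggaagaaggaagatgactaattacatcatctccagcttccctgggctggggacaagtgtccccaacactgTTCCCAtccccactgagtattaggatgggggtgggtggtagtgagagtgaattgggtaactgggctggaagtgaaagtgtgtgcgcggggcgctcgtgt
The IGLL1 window held 1 E-box, 161 to 156 bases before the start. The EBF1 window held 1 Ikaros-type core on the reverse strand, 99 to 94 bases before the start, and the PAX5 window, at 69.6% GC, held none of the 3 patterns. An E-box was also found in the windows of VPREB1 (203 to 198 bases before the start), VPREB3 (187 to 182) and CD79A (181 to 176), so that 4 of the 6 windows held one, against 17.5% of 35116 windows of the same length. VPREB3 had 2 Ikaros-type cores as well, a pattern in 20.8% of all windows. The EBF1 palindrome was in none of the 6 windows and in 1.06% of all windows. A match is a run of letters, not a site shown to be bound.

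IGLL1 (ENSG00000128322) was the only surrogate light chain gene with substantial counts. In wild type DMSO its 3 libraries held 122, 250 and 172 counts, or 25.5, 52.2 and 28.5 CPM. After 6 h of ironomycin they held 135, 184 and 151 counts, or 28.8, 40.2 and 28.3 CPM. After 24 h they held 17, 14 and 12 counts, or 3.49, 2.78 and 2.33 CPM. The DMSO and 6 h libraries overlapped, and every 24 h library lay below all 6 of them.

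The same drop was seen in both knockouts. IGLL1 was chosen on the wild type contrast, but with earlier results of these data known. The knockout tests may therefore not be independent of the choice. HK2 knockout cells held 99, 259 and 233 counts in DMSO (22.1, 44.0 and 44.8 CPM) and 30, 24 and 27 counts after 24 h (7.12, 4.99 and 5.18 CPM). PGP knockout cells held 125, 273 and 285 counts in DMSO (33.4 CPM in the lowest and 62.5 in the highest library) and 20, 17 and 35 counts after 24 h (4.19, 3.95 and 6.82 CPM). In each knockout the treated libraries lay below all DMSO libraries. Replicate 1 was the lowest of the 3 in each of the 3 DMSO groups.

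**Figure D1:**
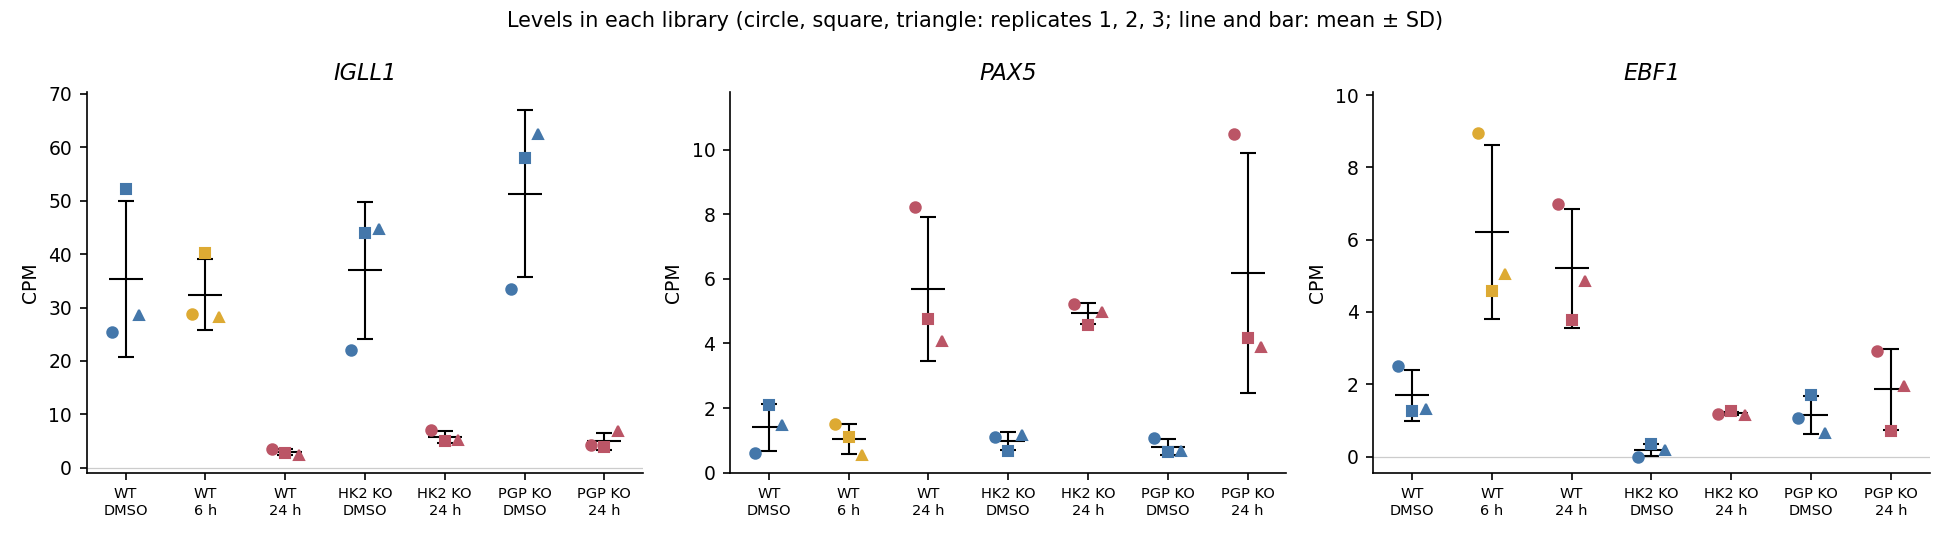
Level of IGLL1, PAX5 and EBF1 (CPM, linear axes that differ between panels) in each of the 21 libraries, by group; symbols are replicates 1 to 3, and the line and bar are the mean and SD. IGLL1 was at 2.33 to 7.12 CPM in all 24 h libraries and at 22.1 or more elsewhere, PAX5 was highest in the 24 h groups, and EBF1 was highest in wild type cells at 6 h and 24 h.

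By group mean, IGLL1 was highest in PGP knockout DMSO at 51.3 ± 15.7 CPM, followed by HK2 knockout DMSO at 37.0 ± 12.9, wild type DMSO at 35.4 ± 14.6 and wild type at 6 h at 32.4 ± 6.70. The libraries of these 4 groups overlapped. The 24 h groups followed, with HK2 knockout at 5.76 ± 1.18, PGP knockout at 4.99 ± 1.59 and wild type at 2.87 ± 0.585. The 2 knockout groups overlapped at 24 h, and the wild type libraries, at 3.49 CPM or less, lay below the lowest knockout library at 3.95.

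IGLL1 fell by 2.69 ± 0.33 on the log2 scale in HK2 knockout cells (0.154-fold, adjusted p = 2.22e-06), the sixth lowest value of 11610 genes. It fell by 3.35 ± 0.34 in PGP knockout cells (0.0982-fold, adjusted p = 1.19e-07), also the sixth lowest. Without the PGP knockout library that carried T cell markers the value was -3.23 ± 0.39 (adjusted p = 3.06e-06). Of all genes tested, 29.4% were called at 24 h in HK2 knockout cells (13.5% lower) and 31.5% in PGP knockout cells (15.4% lower).

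In wild type cells, the contrast that led to its choice, IGLL1 had a log2 fold change of -3.61 ± 0.37 at 24 h against DMSO, the third lowest of 11610 genes, where 29.8% of genes were called and 14.6% were called lower. At 6 h its difference from DMSO was -0.12 ± 0.28 (95% interval -0.67 to 0.42, adjusted p = 0.787), so that no change was detected at a time when 22% of genes were called. These 2 contrasts share the wild type DMSO libraries. Between 6 h and 24 h the description gave -3.49 ± 0.37, a comparison with no DMSO pair, in which 16.6% of genes were called (8.48% higher and 8.08% lower). The 6 h value turned positive, at 0.26, when wild type DMSO replicate 2 was left out.

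Whether the response of IGLL1 differed between genotypes could be tested only between the knockouts. The PGP knockout response minus the HK2 knockout response was -0.65 ± 0.49 (95% interval -1.61 to 0.30, adjusted p = 0.968), which was not resolved. Against the wild type response, described without a test, the HK2 knockout response was 0.92 ± 0.52 smaller and that of the PGP knockout 0.27 ± 0.52 smaller. In DMSO, IGLL1 differed from wild type by 0.07 ± 0.27 in HK2 knockout (adjusted p = 1) and by 0.55 ± 0.27 in PGP knockout cells (adjusted p = 0.886). Those 2 contrasts use the wild type DMSO libraries that also served to choose the gene. In these bulk samples, fewer cells with IGLL1 transcript and less transcript per cell cannot be told apart.

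The VpreB partners of IGLL1 were nearly absent. VPREB1 (ENSG00000169575), which encodes the usual partner chain, had 0 counts in all 21 libraries, which allows at most 0.0293 CPM over the pooled libraries from a limit of 3 counts (counting error only). VPREB3 (ENSG00000128218), which encodes a VpreB-like protein that binds newly made immunoglobulin chains in precursor B cells, had 30 counts in all, spread over 16 libraries with at most 4 in any.

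VPREB3 had 2, 1 and 4 counts in wild type DMSO, 1, 2 and 0 at 6 h, and 2, 1 and 1 at 24 h. HK2 knockout cells had 0, 1 and 0 counts in DMSO and 1, 3 and 0 at 24 h, and PGP knockout cells 3, 2 and 3 in DMSO and 0, 2 and 1 at 24 h. Within wild type and HK2 knockout cells the treated and DMSO libraries overlapped, and in the PGP knockout the highest 24 h library equalled the lowest DMSO library. The ratio of summed counts at 24 h to DMSO was 0.615 in wild type (exact 95% interval 0.132 to 2.42), 4.45 in HK2 knockout (0.440 to 219) and 0.362 in PGP knockout cells (0.0618 to 1.51). In wild type and HK2 knockout cells the intervals lay above the IGLL1 ratios of 0.0850 and 0.153, so a fall as deep as that of IGLL1 lay outside them, while smaller changes were not resolved. In PGP knockout cells the interval included the IGLL1 ratio of 0.102.

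The signalling chains were at the same low level. CD79B (ENSG00000007312), the Ig-beta chain, had 0 counts in all 21 libraries. In GENCODE 29 its exons overlap those of a gene on the same strand that is not among the rows used here, and reads shared by overlapping genes may not have been assigned. CD79A (ENSG00000105369), the Ig-alpha chain, had 27 counts over 13 libraries and at most 5 in any.

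CD79A had 1, 1 and 0 counts in wild type DMSO, 1, 3 and 0 at 6 h, and 0, 3 and 0 at 24 h. It had 1, 0 and 0 counts in HK2 knockout DMSO and 3, 0 and 2 at 24 h, then 2, 3 and 1 in PGP knockout DMSO and 5, 1 and 0 at 24 h. Within each genotype the treated and DMSO libraries overlapped. Ratios at 24 h to DMSO were 1.61 in wild type (0.185 to 19.3), 5.56 in HK2 knockout (0.623 to 263) and 0.964 in PGP knockout cells (0.258 to 3.61), so neither direction was resolved.

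**Figure D2:**
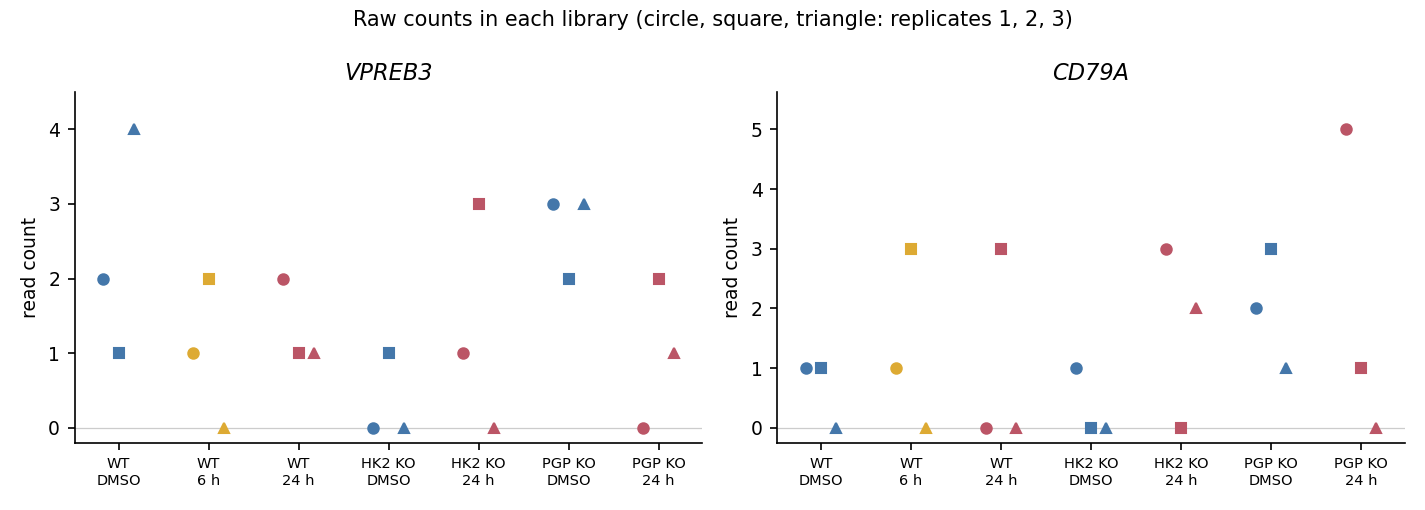
Raw read counts of VPREB3 and CD79A in each of the 21 libraries, by group; symbols are replicates 1 to 3. No library exceeded 4 counts of VPREB3 or 5 of CD79A, and VPREB1 and CD79B, not drawn, were at 0 throughout.

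PAX5 (ENSG00000196092), which commits cells to the B lineage, moved opposite to IGLL1. Its libraries held 3, 10 and 9 counts in wild type DMSO, 7, 5 and 3 at 6 h, and 40, 24 and 21 at 24 h. HK2 knockout cells held 5, 4 and 6 counts in DMSO and 22, 22 and 26 at 24 h, and PGP knockout cells 4, 3 and 3 in DMSO and 50, 18 and 20 at 24 h. Every 24 h library lay above all DMSO and 6 h libraries.

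PAX5 reached 10 counts in all 3 libraries only in the 24 h groups, so it passed the low-count filter through the groups where it was high. Group means were 1.40 ± 0.734 CPM in the wild type DMSO group, 1.05 ± 0.467 after 6 h, 0.983 ± 0.264 in HK2 knockout DMSO and 0.789 ± 0.244 in PGP knockout DMSO, a set whose libraries overlapped. At 24 h they were 5.69 ± 2.22 in wild type, 4.93 ± 0.326 in HK2 knockout and 6.18 ± 3.72 in PGP knockout cells, again with overlap. The spread in PGP knockout cells came from replicate 1 at 10.5 CPM, against 4.18 and 3.90 in the others.

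PAX5 rose by 2.32 ± 0.48 on the log2 scale in HK2 knockout cells (4.98-fold, adjusted p = 0.000826), where 15.9% of genes were called higher. It rose by 2.96 ± 0.51 in PGP knockout cells (7.79-fold, adjusted p = 9.76e-05), where 16.1% were called higher. With no low-count filter, so that the 24 h groups did not decide whether the gene was tested, the adjusted p was 1.24e-05 in HK2 knockout and 3.03e-08 in PGP knockout cells. That fit also estimated the spread anew. For IGLL1 in HK2 knockout cells its SE was 0.22 against 0.331, and its adjusted p 3.22e-32 against 2.22e-06. The smaller p-values with no filter are therefore not added support. Leaving out PGP knockout replicate 1 at 24 h gave 2.32 (adjusted p = 0.00131), and leaving out the library with T cell markers gave 3.15 (adjusted p = 0.000116). In wild type cells the description was 1.99 ± 0.44 at 24 h against DMSO and 2.43 ± 0.47 against 6 h, and the test at 6 h gave -0.44 ± 0.56 (95% interval -1.54 to 0.67, adjusted p = 0.621).

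The response of PAX5 in PGP knockout cells exceeded that in HK2 knockout cells by 0.65 ± 0.76 (95% interval -0.84 to 2.13, adjusted p = 0.975), which was not resolved. Without PGP knockout replicate 1 at 24 h that difference was 0.02 ± 0.52, so its size rests on that library. In DMSO the differences from wild type were -0.53 ± 0.56 in HK2 knockout (adjusted p = 1) and -0.84 ± 0.61 in PGP knockout cells (adjusted p = 0.9). An antisense gene overlaps PAX5 exons and another overlaps those of IGLL1 in GENCODE 29; both had 0 counts in all libraries.

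EBF1 (ENSG00000164330), which acts upstream of PAX5 in B-cell specification, was already higher at 6 h in wild type cells. It held 12, 6 and 8 counts in wild type DMSO (2.51, 1.25 and 1.34 CPM), 42, 21 and 27 at 6 h (8.97, 4.58 and 5.06 CPM), and 34, 19 and 25 at 24 h (6.98, 3.77 and 4.86 CPM). Both treated groups lay above DMSO and overlapped each other. EBF1 reached 10 counts in all 3 libraries only in these 2 treated groups, through which it passed the filter.

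At 6 h EBF1 rose by 1.87 ± 0.42 on the log2 scale (3.65-fold, 95% interval 1.04 to 2.70, adjusted p = 0.00276), where 10.9% of genes were called higher. With no low-count filter the adjusted p was 0.00022, from a fit that also estimated the spread anew, so it is not added support. The contrast shares its DMSO libraries with the one used to select the genes. The 24 h value in wild type, a description, was 1.62 ± 0.43 against DMSO and -0.25 ± 0.37 against 6 h.

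In the HK2 knockout EBF1 was close to 0 in DMSO, with 0, 2 and 1 counts, and had 5, 6 and 6 counts at 24 h (1.20 ± 0.0495 CPM). The ratio of summed counts was 6.31 (17 against 3, exact 95% interval 1.82 to 33.6). The fit called the rise (2.49 ± 0.79, adjusted p = 0.0202), but the fitted size depends on the 3 DMSO counts. The call was lost without HK2 knockout DMSO replicate 1 (adjusted p = 0.074) or replicate 3 (adjusted p = 0.0567).

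In the PGP knockout EBF1 had 4, 8 and 3 counts in DMSO (1.14 ± 0.524 CPM) and 14, 3 and 10 at 24 h (1.86 ± 1.12 CPM), and these groups overlapped. The difference of 0.70 ± 0.54 (95% interval -0.36 to 1.76) was not called (adjusted p = 0.352). Without the 24 h library that carried T cell markers, which held the 3 counts, it was 1.04 ± 0.53 (adjusted p = 0.156), and without replicate 1 of that group 0.21 ± 0.61 (adjusted p = 0.838). The PGP knockout response minus the HK2 knockout response was -1.79 ± 0.98 (adjusted p = 0.968).

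By group mean, EBF1 was highest in wild type cells at 6 h (6.20 ± 2.40 CPM) and 24 h (5.20 ± 1.64 CPM), above every library of the other 5 groups. PGP knockout at 24 h, wild type DMSO (1.69 ± 0.703), HK2 knockout at 24 h and PGP knockout DMSO followed, each overlapping or within 0.1 CPM of the next, and HK2 knockout DMSO was lowest at 0.177 ± 0.170. Against wild type DMSO, the HK2 knockout in DMSO had 3 counts against 26, a ratio of 0.115 (exact 95% interval 0.0223 to 0.376, counting error only). The edgeR fit did not call this difference over all genes (adjusted p = 0.245), a comparison in which 0.00861% of genes were called. Without the low-count filter it was called (adjusted p = 0.0193), in a fit that called 27 genes higher and 32 lower. The PGP knockout difference in DMSO was -0.53 ± 0.55 (adjusted p = 0.909). No gene was called between PGP knockout and wild type in DMSO, where 648 had an unadjusted p under 0.05 and DESeq2 called 3 higher and 2 lower.

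**Figure D3:**
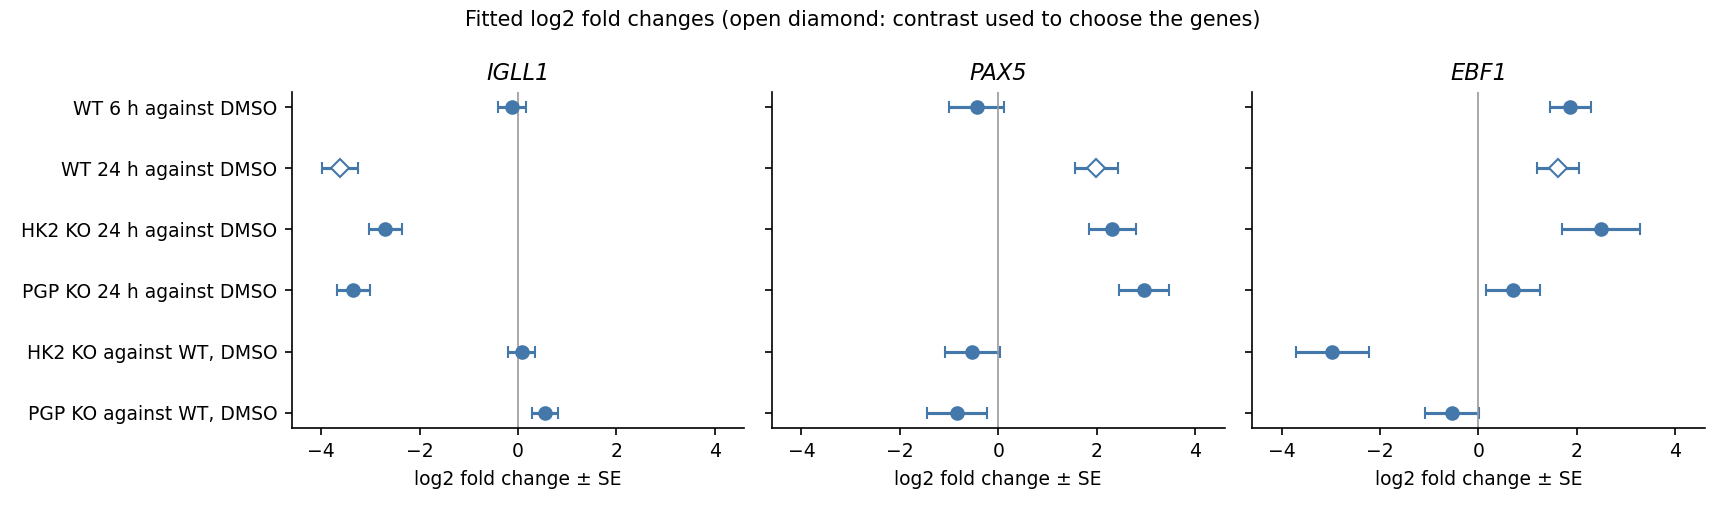
Fitted log2 fold change (x axis) of IGLL1, PAX5 and EBF1 in 6 comparisons, with bars of 1 SE; open diamonds mark the wild type 24 h contrast, which led to the choice of the genes and is not tested. In the 3 comparisons at 24 h IGLL1 lay between -3.61 and -2.69 and PAX5 between 1.99 and 2.96, and EBF1 was at 1.87 at 6 h.

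The other genes of this pathway, from lists drawn up with earlier results of these data known, were read beside the 7. Of 10 immunoglobulin relatives none had counts enough to test. IGLL5, IGLC1, IGLC7, IGKC and IGHD were at 0 in all libraries. IGLC2, a lambda constant gene, had 27 counts over 14 libraries, IGLL3P, a pseudogene related to IGLL1, 11 over 9, and IGHM, the mu heavy chain that the surrogate light chain joins, 8 over 6. IGLC3 and JCHAIN had 3 each.

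Of 22 genes that carry or limit the pre-B cell receptor signal, 16 were tested. At 6 h 2 were called higher and 0 lower (all genes: 10.9% higher, 11.1% lower), with a median log2 fold change of 0.10 against 0.02 over all genes. At 24 h in wild type 7 were higher and 0 lower (all genes: 15.3% and 14.6%), in HK2 knockout 5 and 1 (15.9% and 13.5%), and in PGP knockout 3 and 1 (16.1% and 15.4%, a share near that of all genes), with medians of 0.25, 0.30 and 0.18 against 0.03, 0.03 and 0.04. Without the PGP knockout library with T cell markers the PGP knockout counts were 4 and 0. The receptor-proximal genes BLNK, CD22 and BANK1 were among those with too few counts to test, and BLK was at 0.

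Of the kinases named from the start of this signal, FYN and LYN were called higher at 24 h in each genotype. SYK was called lower in the knockouts only. FYN, a Src-family kinase, averaged 1.90 ± 0.991 CPM in the wild type DMSO group, 7.97 ± 1.63 after 6 h and 8.12 ± 1.04 after 24 h, and its libraries did not overlap with DMSO. It rose by 2.01 ± 0.35 at 6 h (adjusted p = 0.000269) and by 2.04 ± 0.35 (adjusted p = 0.000122), 2.61 ± 0.37 (adjusted p = 1.5e-05) and 2.35 ± 0.33 (adjusted p = 8.94e-06) at 24 h in wild type, HK2 knockout and PGP knockout cells. FYN is also expressed by T and NK cells, and in PGP knockout cells at 24 h it stood at 12.1, 20.9 and 13.8 CPM, highest in the library with T cell markers. Without that library the PGP knockout rise was 2.07 ± 0.34 (adjusted p = 0.000102). LYN, the Src-family kinase most used by B cells, rose from 91.5 ± 10.1 CPM in wild type DMSO to 140 ± 10.3 at 24 h, a gain of 0.61 ± 0.10 (adjusted p = 3.55e-05). It also rose by 0.70 ± 0.10 in HK2 knockout (adjusted p = 9.13e-06) and 0.47 ± 0.10 in PGP knockout cells (adjusted p = 0.000572), and its call at 6 h (0.43 ± 0.10, adjusted p = 0.00219) was lost when the compared groups were fitted alone (adjusted p = 0.0555).

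SYK, the kinase that docks on CD79A and CD79B, fell by 0.54 ± 0.16 in HK2 knockout cells at 24 h (adjusted p = 0.0139). In PGP knockout cells it fell by 0.46 ± 0.16 (adjusted p = 0.0344). The wild type values, -0.40 ± 0.16 at 6 h and -0.38 ± 0.16 at 24 h, were not called (adjusted p = 0.0779 and 0.0773). The PGP knockout call was lost without PGP knockout DMSO replicate 1, or without replicate 2 or 3 at 24 h (adjusted p = 0.172, 0.12 and 0.0923). PRKCB, a protein kinase C that relays the signal to NF-kB, rose by 0.45 ± 0.10 in wild type (adjusted p = 0.00135) and 0.41 ± 0.10 in HK2 knockout cells (adjusted p = 0.00294). Its rise of 0.27 ± 0.10 in PGP knockout cells (adjusted p = 0.0374) was lost with RLE size factors, with no filter, with the compared groups fitted alone, and without any 1 of the 3 DMSO libraries or replicate 1 or 3 at 24 h (adjusted p between 0.0502 and 0.246). The inhibitory phosphatase INPP5D rose at 24 h by 0.57 ± 0.15 in HK2 knockout (adjusted p = 0.00615) and 0.45 ± 0.15 in wild type cells (adjusted p = 0.0284). In PGP knockout cells the value of this phosphatase, 0.35 ± 0.15, was not called (adjusted p = 0.0824). Another, PTPN6, rose by 0.36 ± 0.11 at 24 h in wild type cells (adjusted p = 0.0154), a call lost with no low-count filter and without replicate 2 or 3 of either group (adjusted p between 0.0594 and 0.113).

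Among 23 further transcription factors of the B lineage, 15 were tested. At 6 h 3 were called higher and 2 lower (all genes: 10.9% and 11.1%). At 24 h 2 were higher and 4 lower in wild type (15.3% and 14.6%), 3 and 4 in HK2 knockout (15.9% and 13.5%), and 4 and 5 in PGP knockout cells (16.1% and 15.4%). The counts at 6 h and those of higher genes in wild type and HK2 knockout cells were near the share of all genes. Medians were 0.04, -0.11, -0.04 and 0.08 in those 4 comparisons, against 0.02, 0.03, 0.03 and 0.04 over all genes. The PGP knockout counts were the same without the library with T cell markers. IKZF3 was at 0, and FOXO1, POU2AF1, LEF1, BACH2, IRF4, ID3 and ERG had too few counts to test.

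POU2F2, which encodes the octamer-binding factor OCT2, rose from 91.6 ± 12.5 CPM in the wild type DMSO group to 184 ± 23.5 after 6 h and 181 ± 7.16 after 24 h. The gains were 1.01 ± 0.13 at 6 h (adjusted p = 1.02e-05), 0.98 ± 0.13 at 24 h (adjusted p = 6.43e-06), 1.22 ± 0.13 in HK2 knockout (adjusted p = 5.51e-07) and 1.05 ± 0.13 in PGP knockout cells (adjusted p = 3.56e-06). TCF4 and MEF2C were called higher at 6 h, by 0.62 ± 0.11 (adjusted p = 0.000427) and 0.45 ± 0.11 (adjusted p = 0.00435).

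IKZF1, the Ikaros factor of lymphoid development, fell from 215 ± 15.4 CPM in wild type DMSO to 143 ± 6.18 at 24 h. Its change was -0.59 ± 0.10 in wild type (adjusted p = 0.000139), -0.48 ± 0.10 in HK2 knockout (adjusted p = 0.00122) and -0.64 ± 0.10 in PGP knockout cells (adjusted p = 5.25e-05). TCF3, which encodes the E-box binding E2A proteins, fell by 0.57 ± 0.09 in PGP knockout cells (adjusted p = 3.28e-05) and by 0.37 ± 0.09 at 6 h in wild type (adjusted p = 0.00382), the second of which was lost when the compared groups were fitted alone (adjusted p = 0.0718). At 24 h TCF3 also fell by 0.39 ± 0.09 in wild type (adjusted p = 0.00142) and 0.29 ± 0.09 in HK2 knockout cells (adjusted p = 0.0139). SOX4 and BCL11A, both needed for early B-cell development, fell by 0.77 ± 0.11 (adjusted p = 1.79e-05) and 0.70 ± 0.11 (adjusted p = 6.43e-05) in wild type and by 0.60 ± 0.11 (adjusted p = 0.000324) and 0.56 ± 0.12 (adjusted p = 0.000817) in HK2 knockout cells. In PGP knockout cells SOX4 fell by 0.74 ± 0.11 (adjusted p = 2.9e-05) and BCL11A by 0.71 ± 0.12 (adjusted p = 6.03e-05).

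For V(D)J recombination and end joining, the steps that assemble immunoglobulin genes, 11 of 15 genes were tested. DNTT was at 0, and RAG1, RAG2 and NHEJ1 had too few counts to test. At 24 h 0 were called higher and 4 lower in wild type (all genes: 15.3% and 14.6%), 0 and 5 in HK2 knockout (15.9% and 13.5%), and 1 and 4 in PGP knockout cells (16.1% and 15.4%; 0 and 4 without the library with T cell markers). Medians were -0.33, -0.11 and -0.39, against 0.03, 0.03 and 0.04 over all genes. At 6 h 1 was called higher and 0 lower (all genes: 10.9% and 11.1%): POLL, a gap-filling polymerase, by 0.74 ± 0.26 (adjusted p = 0.0406), a call lost without any 1 of the 3 DMSO libraries, without replicate 1 or 2 at 6 h (adjusted p between 0.0522 and 0.283), or with the compared groups fitted alone (adjusted p = 0.11).

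The 4 named falls were in genes that most cell types use. HMGB1, a DNA-bending protein, fell from 1831 ± 33.7 CPM in wild type DMSO to 972 ± 22.3 at 24 h, by 0.91 ± 0.12 (adjusted p = 4.09e-06). HMGB2 fell by 1.04 ± 0.16 (adjusted p = 3.51e-05), and the Ku subunits XRCC6 and XRCC5 by 0.64 ± 0.11 (adjusted p = 0.000161) and 0.52 ± 0.09 (adjusted p = 0.000171). These 4 genes were also called lower in both knockouts, with values between -1.06 and -0.54.

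The surface genes of B cells and their progenitors included rises and falls. Of 20, CD24, MME, CR2 and CXCR5 were at 0 and 11 were tested. At 6 h 2 were called higher and 2 lower (all genes: 10.9% and 11.1%). At 24 h 4 were higher and 2 lower in wild type (15.3% and 14.6%), 4 and 2 in HK2 knockout (15.9% and 13.5%), and 6 and 2 in PGP knockout cells (16.1% and 15.4%; 5 and 2 without the library with T cell markers). The counts of lower genes were near the share of all genes. Medians were 0.28 at 6 h and 0.43, 0.36 and 0.51 at 24 h, against 0.02, 0.03, 0.03 and 0.04 over all genes.

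FCER2, which encodes the CD23 receptor of mature B cells and some myeloid cells, had 14.2, 7.51 and 11.4 CPM in the wild type DMSO libraries, 23.7, 29.2 and 20.8 after 6 h, and 119, 91.6 and 80.3 after 24 h. The 3 groups did not overlap. It rose by 1.15 ± 0.29 at 6 h (adjusted p = 0.00593), and at 24 h by 3.13 ± 0.27 in wild type (adjusted p = 1.68e-08), 2.75 ± 0.27 in HK2 knockout (adjusted p = 1.46e-07) and 3.21 ± 0.28 in PGP knockout cells (adjusted p = 2.3e-08). IL7R, a receptor chain of lymphoid precursors, had 164, 95.2 and 103 CPM in the wild type DMSO libraries and 55.9, 37.1 and 26.8 after 24 h, with no overlap. It fell by 1.60 ± 0.27 in wild type (adjusted p = 0.00011), 1.83 ± 0.28 in HK2 knockout (adjusted p = 4.22e-05) and 1.64 ± 0.28 in PGP knockout cells (adjusted p = 8.61e-05).

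CXCR4, the receptor that keeps precursor B cells in the marrow, fell by 1.04 ± 0.16 in wild type (adjusted p = 3.01e-05) and 1.05 ± 0.16 in PGP knockout cells at 24 h (adjusted p = 2.73e-05). In HK2 knockout cells it fell by 0.48 ± 0.16 (adjusted p = 0.0247). Its call at 6 h (-0.43 ± 0.16, adjusted p = 0.0485) was lost without any 1 of the 3 DMSO libraries, without replicate 2 or 3 at 6 h (adjusted p between 0.0794 and 0.205), or with the compared groups fitted alone (adjusted p = 0.112). LY86, a partner of the RP105 receptor of B cells, rose by 1.18 ± 0.15 (adjusted p = 2.96e-06), 1.24 ± 0.15 (adjusted p = 1.57e-06) and 1.04 ± 0.15 (adjusted p = 1.44e-05) at 24 h in wild type, HK2 knockout and PGP knockout cells. IL3RA, a receptor chain found on many leukaemic precursors, rose by 0.90 ± 0.13 at 6 h (adjusted p = 3.41e-05) and by 0.63 ± 0.13 in HK2 knockout cells (adjusted p = 0.000794). At 24 h it also rose by 0.73 ± 0.13 in wild type (adjusted p = 0.000174) and 0.51 ± 0.13 in PGP knockout cells (adjusted p = 0.0047). CD53, a tetraspanin of leukocytes, fell by 0.72 ± 0.25 at 6 h (adjusted p = 0.0431), a call lost without wild type DMSO replicate 1 or 3, without replicate 2 at 6 h (adjusted p between 0.0699 and 0.216), or with the compared groups fitted alone (adjusted p = 0.182).

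Without the PGP knockout library that carried T cell markers, FCER2 (3.3), LY86 (1.05), CXCR4 (-0.959), IL7R (-1.51), LYN (0.454), PRKCB (0.327), POU2F2 (0.968), TCF3 (-0.607), IKZF1 (-0.683), SOX4 (-0.816), HMGB1 (-0.815), HMGB2 (-0.861), XRCC6 (-0.771) and XRCC5 (-0.566) kept their direction and call in PGP knockout cells (log2 fold changes in brackets, adjusted p at most 0.0249).

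**Figure D4:**
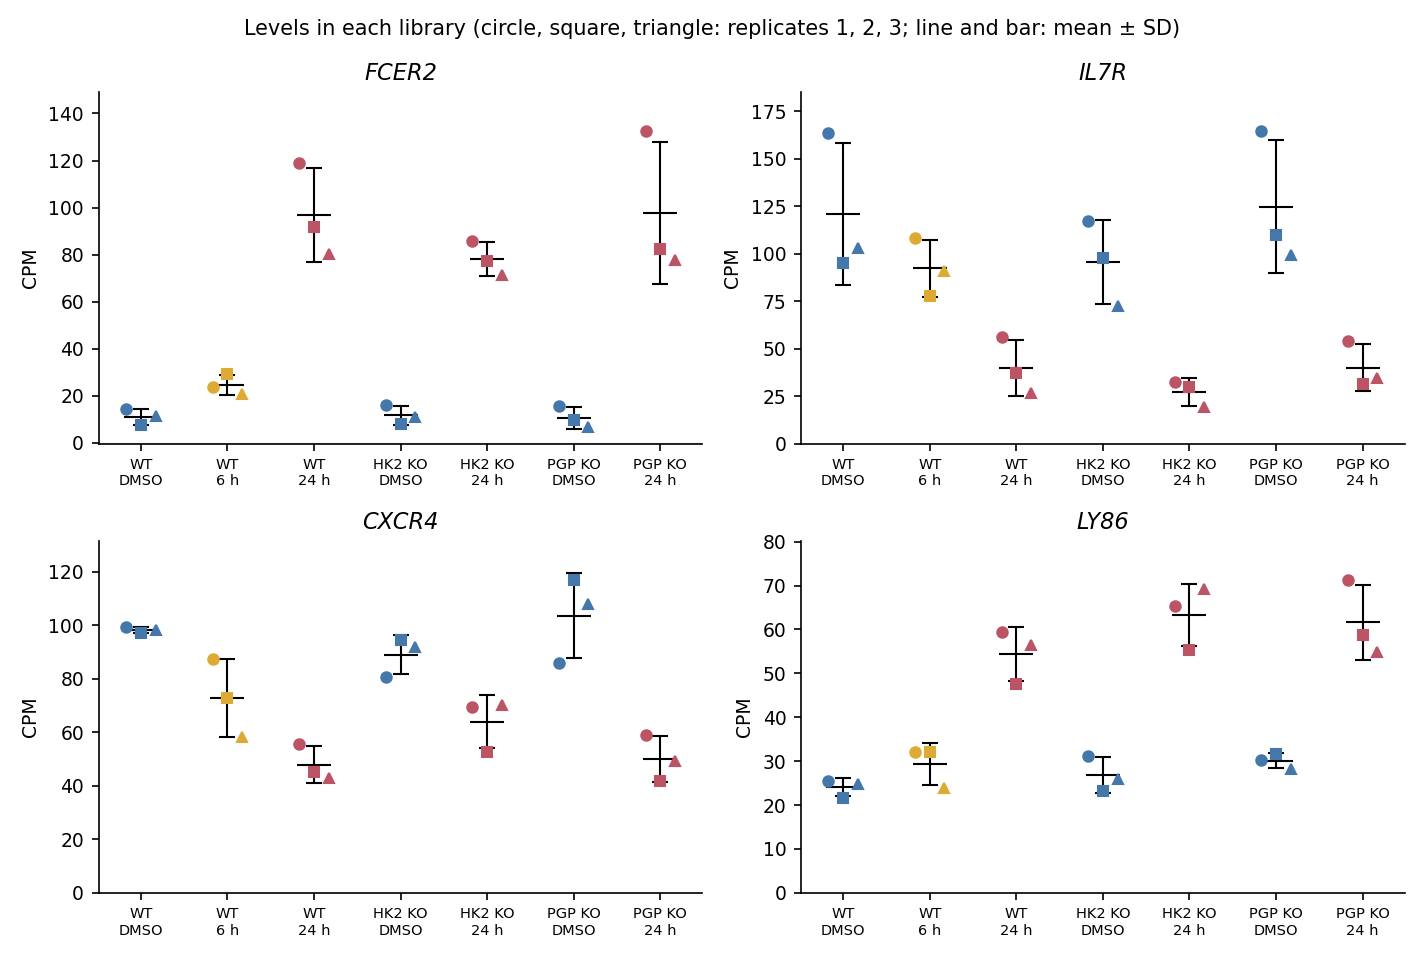
Level of FCER2, IL7R, CXCR4 and LY86 (CPM, linear axes from 0 that differ between panels) in each of the 21 libraries, by group; symbols are replicates 1 to 3, and the line and bar are the mean and SD. FCER2 and LY86 were higher and IL7R and CXCR4 lower in each 24 h group than in its DMSO group, with no overlap of libraries.

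The label of a B-lymphoid part to this line rested on few genes. MS4A1 (CD20) had 1 count in all 21 libraries together and VPREB1 and CD79B had 0, so that these defining B-cell genes were at or near 0, unlike IGLL1. Of 16 myelomonocytic markers, ANPEP and CD68 were at 0, and LYZ, CD14, CEBPA and CEBPE had too few counts to test. PRTN3 averaged 532 CPM, ELANE 220 and CST3 98.5. The summed level of the 16, mostly from PRTN3, ELANE and CST3, was 983 to 1423 CPM in wild type DMSO. It was 752 to 957 at 6 h and 812 to 912 at 24 h. In the knockouts it was 1027 to 1652 in DMSO and 784 to 1024 at 24 h for HK2, and 1178 to 1227 and 690 to 1037 for PGP. At 24 h 1 of 10 tested markers was called higher and 2 lower in wild type. The counts were 1 and 3 in HK2 knockout, and 0 and 2 in PGP knockout cells. Of all genes, 15.3%, 15.9% and 16.1% were called higher and 14.6%, 13.5% and 15.4% lower in these comparisons. The counts of lower markers in wild type and PGP knockout cells were near those shares. The part of these markers in the fall of IGLL1 was not tested.

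Of the other marker lists, which were not tested as lists, the 5 plasma cell markers summed to 249 to 275 CPM in wild type DMSO and 427 to 508 at 24 h, nearly all from XBP1 (mean 336 CPM over all libraries), with MZB1 at no more than 0.873 CPM. The 4 NK cell markers summed to 79.0 to 101 CPM and 97.2 to 144, mostly from NCAM1 (mean 87.6 CPM). The 8 erythroid markers, some of them at 0 throughout, reached 6.04 CPM at most, in PGP knockout cells at 24 h. Of T cell markers TRBC1 was at 0, and in the library with 42 counts GNLY, an NK and T cell gene, was also high, at 10.9 CPM.

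Genes whose pattern was most like that of IGLL1 were ranked by Pearson's r of log2(CPM + 1) over the 21 libraries, among the 9142 tested genes that averaged 5 CPM or more. This is a description, since libraries of a group share treatment and all libraries of a genotype share a source. RNASEH2A, a ribonuclease subunit, was nearest at r = 0.983. STMN1, a microtubule regulator, followed at 0.973, NUDT1, a nucleotide hydrolase, at 0.970, GTSE1, a microtubule-bound cell cycle protein, at 0.968, and KCNE5, a potassium channel subunit, at 0.967. In all, 180 genes had r above 0.9.

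In wild type cells RNASEH2A was at 137 ± 8.68 CPM without treatment, 128 ± 22.2 after 6 h and 66.4 ± 6.24 after 24 h. STMN1 stood at 1037 ± 32.2, 897 ± 63.9 and 361 ± 11.9 CPM in the same groups. The genes most unlike IGLL1 were INSIG1 (r = -0.956), PNPLA3 (-0.949) and SLC35E1 (-0.949), and INSIG1, a brake on sterol synthesis, had 103 ± 9.99 CPM in DMSO, 86.4 ± 21.4 at 6 h and 510 ± 62.5 at 24 h in wild type cells. The 5 nearest genes were the same with a pseudocount of 0.5, and 3 of them stayed among the 5 nearest without wild type 6 h replicate 2.

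**Figure D5:**
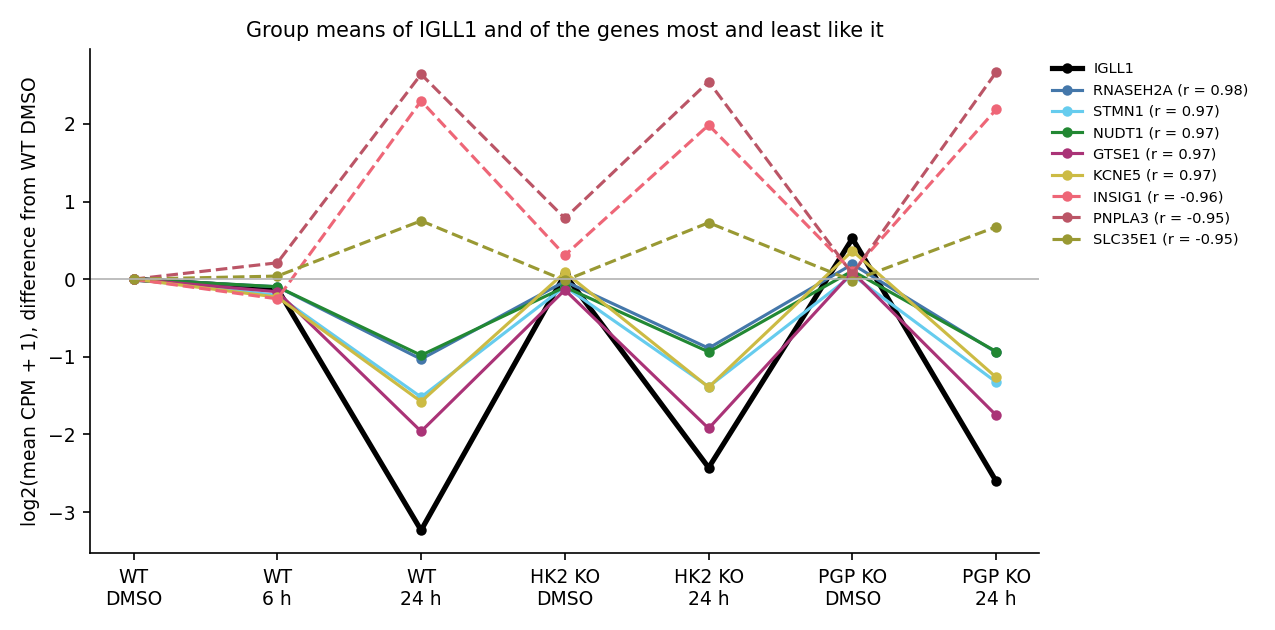
Group means of IGLL1, the 5 genes most like it (solid lines) and the 3 most unlike it (dashed), as log2(mean CPM + 1) minus the value in wild type DMSO (y axis) for the 7 groups (x axis, joined by lines only to guide the eye). IGLL1 and the 5 like genes were lower in all 3 groups at 24 h and close to 0 at 6 h, and the fall of IGLL1 was the deepest of the genes drawn.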

How the data were processed

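The 7 genes and all gene lists were chosen with earlier results of these data known. The authors deposited a table of raw counts with 1 row per Ensembl gene and no normalization. Per the submitters' processing notes, the tools were bcl2fastq 2.20.0.422, HISAT2 (genome build hg19) and HTSeq. The strand setting and annotation version are not given in the sources used here, so overlapping and antisense genes are uncertain. Symbols came from a reference table and GENCODE 29 for 51854 of 54042 identifiers.

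The test was edgeR's quasi-likelihood test (edgeR 4.0.16 with limma 3.58.1, in R 4.3.3). Libraries, and the CPM values given, were scaled by TMM, and 1 model gave each group its mean. Low genes were removed by filterByExpr. It kept genes with 15 counts in total that reached the CPM of 10 counts at median depth in 3 or more libraries. The pipeline was tested on simulated data. The 95% intervals of fold changes are from the SE. Contrasts that use the wild type 24 h libraries have no p for the 7 genes. Ratios of few counts have exact conditional intervals, and these and limits from 3 counts cover counting error only. Alternatives were RLE size factors, DESeq2 1.42.0, no filter, a block for the replicate number, the compared groups alone, and each library left out. In the PGP knockout, DMSO and 24 h libraries of 1 number deviated together from their groups (r = 0.278, 0.184 and 0.282). For HK2 knockout cells r was 0.0517, -0.0379 and 0.14. In wild type it was 0.194, 0.0488 and 0.253 at 24 h, and 0.0465, 0.179 and 0.387 at 6 h. The main fit did not pair libraries, and p-values come from it unless an alternative is named. Only the replicate block used the numbers.

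Named genes were the 7, up to 4 called members of each list and comparison in order of adjusted p, the immunoglobulin relatives with counts, the 3 markers of each cell type with the highest mean, and the 5 most and 3 least like IGLL1. MS4A1 is named outside that rule, as is GNLY's library value, after their values were seen. For SYK, INPP5D, TCF3, BCL11A, CXCR4 and IL3RA, values in comparisons outside that rule are also given, with no alternatives. Values of some genes of these lists are not reported here. Tables and figures were made with Python 3.11.15, pandas 2.3.3, numpy 2.4.6 and matplotlib 3.10.9.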

Additional observations from a re-analysis of the deposited data

How the results depend on the processing

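For IGLL1 and PAX5 in the HK2 and PGP knockouts at 24 h, and for EBF1 at 6 h, every alternative kept the direction and the call. With 1 library left out, IGLL1 ranged from -2.97 to -2.56 in HK2 knockout and -3.67 to -3.21 in PGP knockout cells, PAX5 from 2.08 to 2.44 and 2.32 to 3.2, and EBF1 at 6 h from 1.52 to 2.24. Uncalled values changed sign: IGLL1 at 6 h ranged from -0.306 to 0.258, and IGLL1 between HK2 knockout and wild type in DMSO from -0.108 to 0.455. EBF1 in HK2 knockout cells at 24 h ranged from 2.03 to 3.23 and lost its call without either of 2 DMSO libraries. With no low-count filter EBF1 was called between the HK2 knockout and wild type DMSO groups (-2.97, adjusted p = 0.0193). The replicate block gave -3.32 for IGLL1, 2.89 for PAX5 and 0.635 for EBF1 in PGP knockout cells and changed no call of these genes there or elsewhere.

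Counts over all genes moved more. With the compared groups fitted alone, 636 genes were called higher and 576 lower at 6 h, against 1271 and 1285, and 377 and 372 at 24 h against 6 h, against 984 and 938. The higher count at 6 h was 846 without wild type DMSO replicate 3, and that at 24 h against 6 h was 623 without wild type 24 h replicate 3. Between HK2 knockout and wild type in DMSO 1 gene was called higher and 0 lower, against 27 and 32 with no filter, 10 and 13 in DESeq2, 8 and 9 with the groups alone and 7 and 12 with the replicate block, and 0 to 3 and 0 to 5 with 1 library left out. For PGP knockout in DMSO these were 0 and 0, against 26 and 70 with no filter and 0 and 2 with the groups alone. The PGP minus HK2 difference in response was 0 and 0 (457 genes at an unadjusted p under 0.05, 0 in DESeq2), against 15 and 15 with no filter; the HK2 and PGP differences from the wild type response were likewise 0 and 0 (267 and 221 genes at an unadjusted p under 0.05, 0 in DESeq2), against 12 and 5 and 12 and 6 with no filter. Of 649 alternative values of list genes in the comparisons that named them, 34 lost the call and 0 changed sign. VPREB1 and CD79B had no counts to compare, and for VPREB3 and CD79A depth leaves only the wide intervals given.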
